A study of Homo sapiens with 12 samples.

Results

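The genes described are 48 genes of the cell cycle and of chromatin assembly on newly copied DNA, out of 59490 features with a name that occurs once in the deposited tables. They were taken by gene name from a list whose rule uses no measured value, although it was drawn up with earlier results of these data known, and all 48 names were found. The first 25, from CHAF1A to CCND3, act in G1 and S phase and are called S-phase members. The other 23, from CDK1 to UBE2C, act in G2 and mitosis and are called G2/M members. Values come from polyadenylated RNA of OCI-LY1, a human line of diffuse large B-cell lymphoma, in 12 libraries that fall into 4 groups of 3. Parental cells received vehicle (DMSO) or 1 µM decitabine, a deoxycytidine analogue that inhibits DNA methyltransferases, for 3 days. The same treatments were given to OCI-LY1R, a derivative selected with rising concentrations of the BCL2 inhibitor venetoclax up to 1 µM. The labels say neither whether OCI-LY1R is 1 clone nor whether its replicates were grown apart. The p-values thus measure only how these libraries differ, a spread that may be technical.

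A cell prepares to copy its DNA by loading the MCM helicase onto origins in G1, through the origin recognition complex, CDC6 and CDT1. Cyclin E with CDK2 and the E2F factors then start S phase, in which DNA polymerases, the sliding clamp PCNA and its loader copy the genome. Chromatin assembly factor 1, with its subunits CHAF1A and CHAF1B, is brought to the fork by PCNA and places histones on the new DNA. In G2 and mitosis, CDK1 with cyclins A and B, the Aurora and Polo-like kinases and the anaphase-promoting complex carry the chromosomes through division. Many genes of the earlier set are known targets of E2F factors, and many of the later set carry a cell cycle homology region (CHR) with CCAAT boxes that bind NF-Y. Germinal-centre lymphoma cells divide fast and hold much RNA of both sets.

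The promoters of the S-phase and G2/M members held different motif letters, a feature that the choice of the genes did not use. RefSeq promoter windows (GRCh38.p14, 250 bases before to 50 after the start) were matched by symbol for 39 members, and MCM4, MCM5, CCNE2, CDK2, AURKA, TTK, TPX2, BIRC5 and UBE2C had no entry. The E2F letters searched were TTTCCCGC, TTTGGCGC, TTTCGCGC and TTTGCCGC, the CHR letters TTTGAA, and the CCAAT box CCAAT, all on both strands. Matches were counted separately even where they share bases. E2F letters stood in 12 of 21 S-phase promoters (57.1%), in 1 of 18 G2/M promoters (5.56%) and in 3.33% of 27305 promoters of the same length. CHR letters stood in 0 of 21 S-phase promoters and in 10 of 18 G2/M promoters (55.6%), against 15.4% of all promoters. CCAAT stood in 61.9% of S-phase, 83.3% of G2/M and 35.7% of all promoters. Of the G2/M promoters, 50% held both CHR letters and CCAAT, against 6.08% of all promoters. CDK1 was the G2/M member with E2F letters, and it held CHR letters too. A match is a description and not a bound site.

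**Figure D1:**
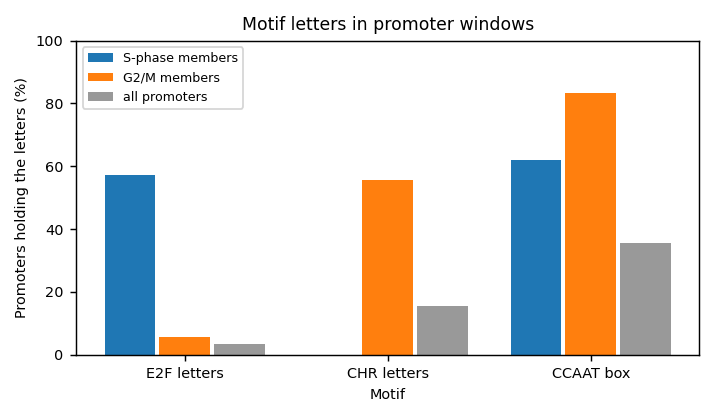
Share of promoter windows of 300 bases (percent) that hold the E2F, CHR or CCAAT letters on either strand, for 21 S-phase members, 18 G2/M members and all 27305 promoters. E2F letters were found in 57.1% of S-phase and 5.56% of G2/M promoters, and CHR letters in 0% and 55.6%.

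CHAF1A, which does not carry this contrast, is shown as the chromatin assembly gene whose listed level differs between the lines below. Windows of 4 members are given with it included. The others are MCM6, the S-phase member with the most E2F matches, TOP2A, a G2/M member with CHR letters, and CDK1, which holds both. Each window is printed 5′ to 3′ on the strand of its gene, with every match in capitals. In MCM6 the 4 E2F matches fall into 2 runs, since matches on the opposite strands share bases, and 2 CCAAT boxes are read as ATTGG. CHAF1A held 4 CCAAT matches and neither of the other motifs, TOP2A held 2 CHR and 4 CCAAT matches, and CDK1 held 1 of each kind.
CHAF1A (chr19:4402390-4402689, plus strand): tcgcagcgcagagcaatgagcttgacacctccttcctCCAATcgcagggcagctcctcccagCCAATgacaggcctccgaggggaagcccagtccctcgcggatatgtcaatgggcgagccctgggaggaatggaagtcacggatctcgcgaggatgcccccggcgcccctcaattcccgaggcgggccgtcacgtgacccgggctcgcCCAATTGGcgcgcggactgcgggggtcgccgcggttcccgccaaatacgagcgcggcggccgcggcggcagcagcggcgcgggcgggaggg
MCM6 (chr2:135876394-135876693, minus strand): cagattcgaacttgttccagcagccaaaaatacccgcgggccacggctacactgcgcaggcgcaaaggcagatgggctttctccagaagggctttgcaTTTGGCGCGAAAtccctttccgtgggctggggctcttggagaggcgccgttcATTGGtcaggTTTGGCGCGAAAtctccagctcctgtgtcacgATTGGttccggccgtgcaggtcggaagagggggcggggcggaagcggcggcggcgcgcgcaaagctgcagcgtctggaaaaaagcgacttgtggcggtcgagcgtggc
TOP2A (chr17:40417847-40418146, minus strand): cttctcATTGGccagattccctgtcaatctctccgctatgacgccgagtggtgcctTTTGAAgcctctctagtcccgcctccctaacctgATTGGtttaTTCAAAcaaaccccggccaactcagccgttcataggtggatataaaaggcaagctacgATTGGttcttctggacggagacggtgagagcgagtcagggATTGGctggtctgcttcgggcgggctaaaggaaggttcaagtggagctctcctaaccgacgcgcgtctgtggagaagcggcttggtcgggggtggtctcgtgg
CDK1 (chr10:60778081-60778380, plus strand): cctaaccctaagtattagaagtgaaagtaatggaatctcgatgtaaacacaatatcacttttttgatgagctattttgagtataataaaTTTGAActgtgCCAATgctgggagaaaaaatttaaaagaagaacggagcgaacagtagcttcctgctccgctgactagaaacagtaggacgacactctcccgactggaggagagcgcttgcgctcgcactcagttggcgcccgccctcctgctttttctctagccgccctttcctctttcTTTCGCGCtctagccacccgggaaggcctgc

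Values are TPM, an abundance divided by feature length and scaled to a sum of 1000000 in each library, so levels can be compared between genes. TPM keep no library size, so the depth is unknown and no counting interval is given. In the parental decitabine group, replicate 3 differed widely from all 11 other libraries and is shown apart here. Protein-coding features took 89.4% of its TPM and 26.6% to 32.2% in the other 11, and annotated antisense features held 0.298% of it against 34.9% to 48.7%. Features at or above 1 TPM numbered 13628 in it and 7078 to 9038 in the others. All 6 B-cell markers were above 1 TPM in replicate 3, with a summed level of 2865 TPM, against 20.95 to 152 TPM in the other 11. The 5 T-cell markers summed to 23.4 TPM in replicate 3 and the 4 myeloid markers to 0.53 TPM, and LYZ, CD3D and CD3G were listed at 0 in it. The 4 epithelial or fibroblast markers summed to 36.2 TPM in replicate 3, 1.77 to 22.4 TPM in resistant decitabine libraries and 0 to 2.98 TPM in the other 8. The part of these library differences in the results below was not tested.

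In parental decitabine replicate 3 every member of the cell cycle set was above 10 TPM, from 10.8 TPM for CENPE to 326.5 TPM for MCM7. The median was 65.3 TPM over the S-phase members and 64.2 TPM over the G2/M members. As background, the median of 10825 protein-coding genes of at least 1 TPM in this library was 17.1 TPM, and 44 of the 48 members lay above it. It is 1 library, so these levels have no error and no test.

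Among S-phase members of replicate 3, the helicase was the highest group. MCM7 was at 326.5 TPM, MCM5 at 228 TPM, MCM4 at 214 TPM, MCM2 at 155 TPM, MCM3 at 141 TPM and MCM6 at 74.7 TPM, with a median of 185 TPM. PCNA, the sliding clamp, was at 292 TPM. The flap endonuclease gene FEN1, which trims Okazaki fragments, was at 88.2 TPM and the clamp loader gene RFC2 at 83.6 TPM. The polymerase genes POLE and POLA1 were lower, at 49.9 and 14.7 TPM. Of the origin genes, CDT1 was highest at 119 TPM, above GINS2 (65.3 TPM), CDC6 (57.1 TPM), CDC45 (46.9 TPM), ORC1 (30.8 TPM) and MCM10 (16.05 TPM). CHAF1A was at 68.9 TPM and its partner CHAF1B at 28.98 TPM. CDK2 was at 81.3 TPM, E2F1 at 55.9 TPM, CCND3 at 50.1 TPM, E2F2 at 46.1 TPM, CCNE1 at 31.4 TPM and CCNE2 at 28.9 TPM.

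Among G2/M members of replicate 3, CDC20, which activates the anaphase-promoting complex, and UBE2C, the ubiquitin-conjugating enzyme that works with it, were the highest at 219 and 196 TPM. PLK1 was at 178 TPM, the spindle assembly gene TPX2 at 144 TPM, the cyclin gene CCNB2 at 136 TPM, the topoisomerase gene TOP2A at 119 TPM and AURKB at 111 TPM. CCNB1 (95.4 TPM), AURKA (79.7 TPM), BIRC5 (72.2 TPM), the proliferation marker MKI67 (66.8 TPM), CCNA2 (64.2 TPM), CDK1 (63.7 TPM) and the checkpoint kinase BUB1 (60.4 TPM) lay in the middle. CDC27, a subunit of the anaphase-promoting complex, was at 50.1 TPM and BUB1B at 44.7 TPM. The lowest were KIF20A (33.1 TPM), CENPF (26.2 TPM), TTK (22.8 TPM), CDC25C (20.5 TPM), KIF11 (20.2 TPM), MAD2L1 (16.2 TPM) and CENPE (10.8 TPM).

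**Figure D2:**
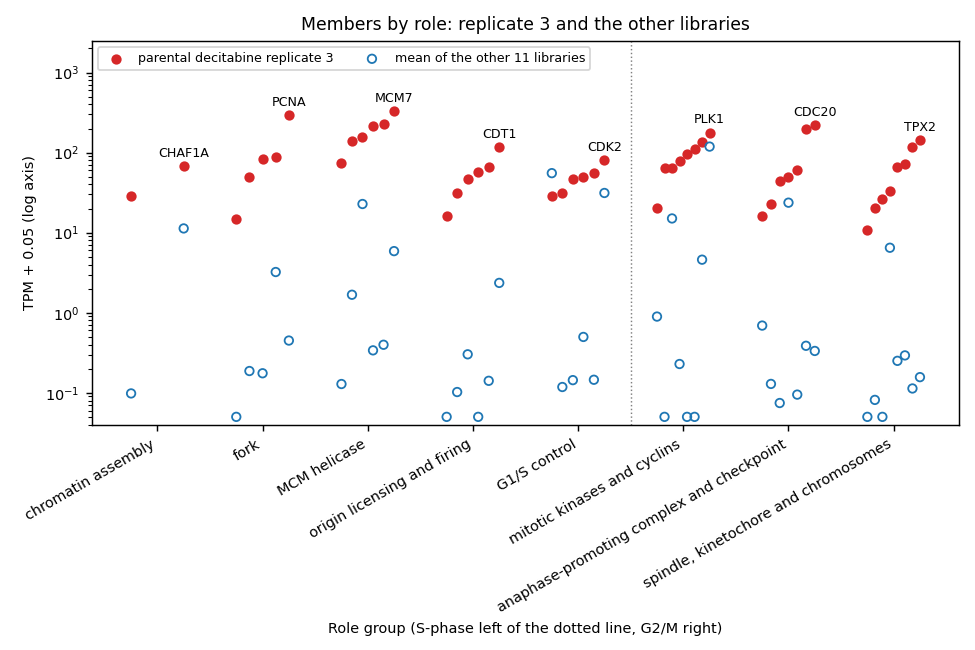
Level of each member by role group, as TPM + 0.05 on a log axis, in parental decitabine replicate 3 (filled points, 1 library) and as the mean of the other 11 libraries (open points). The highest member of each group in replicate 3 is named. Filled points run from 10.8 to 326.5 TPM, and most open points lie below 1 TPM.

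In the other 11 libraries most of the same genes were listed at or near 0. The mean over the 11 was at least 1 TPM for 13 of 48 members, 8 of 25 S-phase and 5 of 23 G2/M. MCM10, CDC6, POLA1, CDK1, CCNB1, AURKB, CENPE and CENPF were listed at 0 in all 11. PCNA was at 0.73, 0.46 and 0.88 TPM in parental vehicle libraries 1, 2 and 3 and listed at 0 in decitabine replicates 1 and 2, whereas replicate 3 had 292 TPM. In resistant cells PCNA was above 0 in vehicle library b (0.72 TPM) and decitabine library a (1.60 TPM). TOP2A was at most 0.15 TPM, MKI67 at most 0.56 TPM and CDC20 at most 1.73 TPM in these libraries. TPX2 was above 0 in parental vehicle 2 (0.39 TPM) and resistant decitabine c (0.78 TPM) and listed at 0 in the other 9. Of the 48 members 44 were higher in replicate 3 than in every other library (91.7%), as were 85.1% of the 6953 protein-coding genes that reached 10 TPM there. The 4 exceptions were CCNE2, CDK2, CDC27 and PLK1. The fits below cover the 14 members that averaged at least 1 TPM in the libraries of a comparison. The other 34 were tested only in alternatives, such as those without that minimum or with replicate 3 included.

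**Figure D3:**
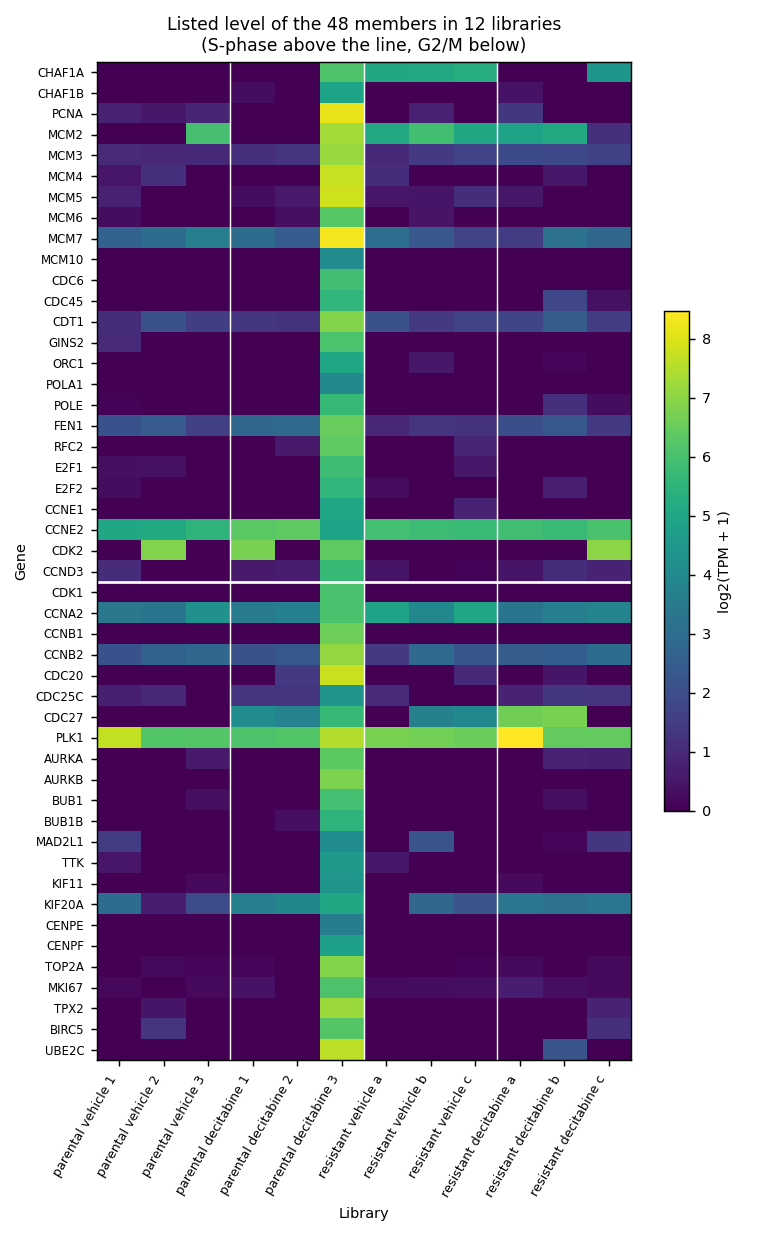
Level of the 48 members, as log2(TPM + 1), in the 12 libraries (columns), with S-phase members above the white line and G2/M members below it. Parental decitabine replicate 3 is filled for every gene, and in the other 11 columns 13 genes have a mean of at least 1 TPM.

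The members that averaged at least 1 TPM over the 11 libraries were mostly those that share exon bases with a feature on the opposite strand. In GENCODE 29 (GRCh38), 13 of 48 members (27.1%) do so, and among them 10 averaged at least 1 TPM over the 11 libraries (76.9%) and 9 a mean of at least 5 TPM. Among the 35 members without such exons, 3 reached 1 TPM (8.57%) and 0 reached 5 TPM. Those 3 were CCNB2 (mean 4.55 TPM), CDT1 (2.31 TPM) and MCM3 (1.63 TPM). The same contrast held over the 6953 protein-coding genes, of which 74.6% with opposite exons and 21.9% without reached 1 TPM. Members without opposite exons were lower in the 11 than in replicate 3 by a median log2 ratio of -5.76, against -2.51 for those with them and -4.57 for protein-coding genes without them. Ratios are of TPM + 1. This describes the tables, and whether the strand of the reads was assigned alike in all 12 libraries was not tested. A listed value or a 0 for a member in the 11 libraries may therefore not measure RNA of the member's own strand, and each level and comparison below is of the listed value.

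The antisense features opposite MCM2, CDK2 and PLK1 were more abundant than these members in the 11 libraries, and the members were the more abundant in replicate 3. An antisense feature that shares 1113 exon bases with MCM2 (chromosome 3, 127598223 to 127622436) was at 471.6 to 754 TPM in the 11 and listed at 0 in replicate 3. MCM2 itself was at 0, 0 and 61.3 TPM in parental vehicle libraries, 0 and 0 in decitabine replicates 1 and 2, and 155 TPM in replicate 3. In resistant cells MCM2 was at 33.3, 58.3 and 32.6 TPM under vehicle and 29.4, 34.2 and 1.26 TPM under decitabine. An antisense feature wholly inside the exons of CDK2 (chromosome 12, 55966769 to 55972784) ranged from 296.6 to 428 TPM over the 11 libraries but was listed at 0 in replicate 3. CDK2 was at 114 TPM in parental vehicle 2, 104 TPM in parental decitabine 1, 127 TPM in resistant decitabine c and 81.3 TPM in replicate 3, and listed at 0 in the other 8 libraries. Its values thus switched between 0 and over 100 TPM within groups, while the antisense feature opposite it varied little. PMEL, a protein-coding gene that shares 89 exon bases with CDK2, was at 154 to 278 TPM in the 11 and 1.40 TPM in replicate 3. An antisense feature that shares 553 bases with PLK1 (chromosome 16, 23677656 to 23690367) was at 226 to 429 TPM in the 11 and 0.31 TPM in replicate 3.

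PLK1, the Polo-like kinase that drives mitotic entry, had the highest mean over the 11 libraries, 119 TPM. It was at 203, 70.99 and 71.6 TPM in parental vehicle, 67.8 and 71.3 TPM in decitabine replicates 1 and 2, 108, 101 and 94.02 TPM in resistant vehicle and 351, 84.3 and 84.9 TPM in resistant decitabine libraries. Vehicle 1 and resistant decitabine a stood far above the rest of their groups, and the groups overlapped. MCM7 (chromosome 7, 100092728 to 100101940) shares 392 bases with AP4M1. MCM7 was at 1.84 to 11.4 TPM in the 11 libraries and AP4M1, which encodes an adaptor complex subunit, at 28.2 to 93.6 TPM. GINS2 shares 7 bases with GSE1, which was at 10.3 to 45.9 TPM in the 11. CCNA2, the cyclin of S phase and G2, shares 254 bases with EXOSC9, a gene of the RNA exosome, and was at 8.71 to 31.1 TPM, with EXOSC9 at 45.1 to 84.8 TPM. CCNE2 (chromosome 8, 94879770 to 94896678), which encodes cyclin E2, shares 1629 of its exon bases (37.0%) with INTS8, an Integrator subunit gene. CCNE2 and INTS8 had similar levels, with means of 55.4 and 41.3 TPM over the 11 libraries and 28.9 and 37.5 TPM in replicate 3.

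**Figure D4:**
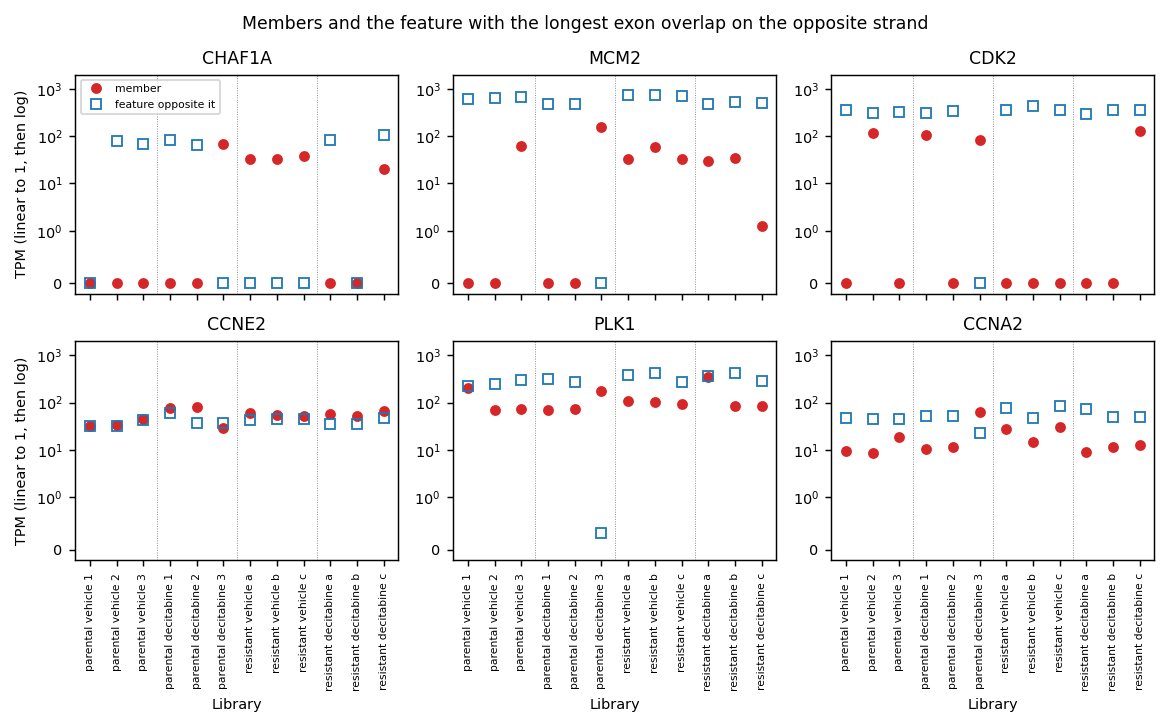
TPM of 6 members (filled) and of the feature with the longest exon overlap on the opposite strand (open squares) in each of the 12 libraries, on an axis linear to 1 and logarithmic above. In parental decitabine replicate 3 the features opposite CHAF1A, MCM2 and CDK2 were listed at 0 and those members at 68.9, 155 and 81.3 TPM.

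Resistant against parental cells under vehicle asks how the 2 lines differ before any decitabine. The listed level of CHAF1A, the largest subunit of chromatin assembly factor 1, was higher in resistant cells. CHAF1A (chromosome 19, 4402662 to 4445018) had values of 0 in all 3 parental vehicle libraries and of 32.3, 33.6 and 37.2 TPM in resistant vehicle libraries a, b and c. The groups did not overlap, and the limma adjusted p was 0.000687, with no fold given since 1 group is at 0. How many of all features separate in this way was not counted, here or below. CHAF1A was the 1 called among 13 tested members (8 S-phase and 5 G2/M), where 2.8% of the 7761 features tested were called. The call held in all 12 alternatives, with an adjusted p of 0.00069 to 0.00966. The parental values of 0 add no spread of their own to the fit. CHAF1A also passed the minimum mean through the resistant libraries alone. Each alternative reuses these libraries, so the 12 are not independent support for the call. The 2 tables were each scaled within the library, and this comparison runs across them. Selection with venetoclax, other differences between the lines and differences between the tables cannot be told apart here.

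Among parental decitabine libraries CHAF1A had 0 TPM in replicates 1 and 2 but 68.9 TPM in replicate 3, so not every parental library lacked it. Its partner CHAF1B was at most 0.32 TPM in the 11 libraries. An antisense feature that shares 81 exon bases with CHAF1A was at 0, 77.6 and 69.7 TPM in parental vehicle and at 0 in all 3 resistant vehicle libraries. In the decitabine libraries that feature was at 81.9 and 64.2 TPM in parental replicates 1 and 2 and at 83.9, 0 and 104 TPM in resistant a, b and c. Its difference between the lines did not pass the test (limma adjusted p = 0.275). In the 3 libraries with the highest CHAF1A among the 11 the feature was at 0, but parental vehicle 1 and resistant decitabine b listed both at 0, and resistant decitabine c had both above 0. UBXN6, which shares 20 bases with CHAF1A, was at 10.5 to 75.8 TPM in the 11. The part of these features in the CHAF1A result was not tested.

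The other 12 tested members did not pass the test between the lines under vehicle. CCNE2 was at 31.7, 34.1 and 44.7 TPM in parental and 60.3, 55.0 and 51.3 TPM in resistant vehicle libraries, without overlap (log2 fold change 0.59, SE 0.18, limma adjusted p = 0.151). FEN1 was at 3.39, 4.42 and 2.06 TPM in parental and 0.98, 1.47 and 1.34 TPM in resistant cells (log2 fold change -0.89, SE 0.34, adjusted p = 0.236). MCM2 (adjusted p = 0.331) was called without parental vehicle 3, and CDC27 (0.281) without resistant vehicle a. Under decitabine, 0 of 14 tested members differed between the lines (0.831% of 9029 features were called), and 2 had an unadjusted p under 0.05, as did 12.1% of all features. CHAF1A was then at 0 and 0 TPM in parental replicates 1 and 2 and at 0, 0 and 20.7 TPM in resistant libraries (limma adjusted p = 0.734).

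Decitabine against vehicle in parental cells, without replicate 3, asks what the drug changes in cells not selected with venetoclax. The listed level of CDC27, a core subunit of the anaphase-promoting complex, rose, with the same limit on strand. CDC27 lies on chromosome 17 from 47117703 to 47189422. All 3 vehicle libraries listed it at 0, decitabine replicates 1 and 2 had 16.4 and 12.5 TPM (limma adjusted p = 0.0169), and replicate 3 had 50.1 TPM. It was the 1 called among 12 tested members, of 5 G2/M and 7 S-phase, where 1.86% of 8122 features were called. As for CHAF1A, the values of 0 add no spread to the fit, and the minimum mean was passed through 1 group alone. The call was lost without any 1 vehicle library (adjusted p = 0.0603 to 0.0769) and with replicate 3 included (0.594). In resistant cells CDC27 was at 0, 12.1 and 14.6 TPM under vehicle and 97.4, 107 and 0 TPM under decitabine, so the groups overlapped (adjusted p = 0.644). The antisense feature that shares 126 bases with CDC27 was above 0 in parental vehicle 3 alone (43.4 TPM).

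CCNE2 was higher with decitabine in parental cells without passing the test. Vehicle libraries were at 31.7, 34.1 and 44.7 TPM, and replicates 1 and 2 at 76.8 and 81.1 TPM (difference of 1.09 on the log2 scale, SE 0.19, limma adjusted p = 0.0801), while replicate 3 was at 28.9 TPM. INTS8, on the opposite strand, was at 32.4, 31.9 and 42.5 TPM under vehicle and 60.9 and 36.4 TPM in replicates 1 and 2. In resistant cells CCNE2 was at 60.3, 55.0 and 51.3 TPM in vehicle libraries and 57.8, 51.2 and 65.1 TPM in decitabine libraries (log2 fold change 0.06, SE 0.16). The difference of the 2 responses was -1.04 on the log2 scale (SE 0.24, adjusted p = 0.153) and did not pass. KIF20A, a kinesin of the late spindle, was at 6.91, 0.60 and 2.81 TPM under vehicle and 11.2 and 13.7 TPM in replicates 1 and 2 (log2 fold change 1.88, SE 0.73, adjusted p = 0.287).

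Decitabine against vehicle in resistant cells addresses the response of cells already adapted to venetoclax. None of 13 tested members (8 S-phase and 5 G2/M) passed limma, where 3.59% of 8579 features were called. An unadjusted p under 0.05 was found for 2 of them and for 19.8% of all features. CHAF1A, at 32.3, 33.6 and 37.2 TPM in vehicle libraries, had 0, 0 and 20.7 TPM in decitabine libraries (log2 fold change -3.66, SE 1.24, adjusted p = 0.18). All 3 decitabine libraries were below all 3 vehicle libraries. Decitabine library c decided this value: without it CHAF1A was called (adjusted p = 0.00727). No difference of responses is given for CHAF1A, since a gene at 0 in the parental vehicle libraries cannot fall. CCNA2 was at 28.1, 14.6 and 31.1 TPM in vehicle and 8.79, 11.3 and 12.6 TPM in decitabine libraries, again without overlap (log2 fold change -1.05, SE 0.34, adjusted p = 0.163). EXOSC9, opposite CCNA2, was at 78.0, 47.8 and 84.8 TPM in vehicle and 72.4, 48.3 and 49.7 TPM in decitabine libraries. Its part in the CCNA2 values was not tested. The listed values of CHAF1A and CCNA2 may not measure RNA of their own strand. Even where they do, fewer cycling cells and less RNA per cell cannot be told apart in bulk RNA.

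**Figure D5:**
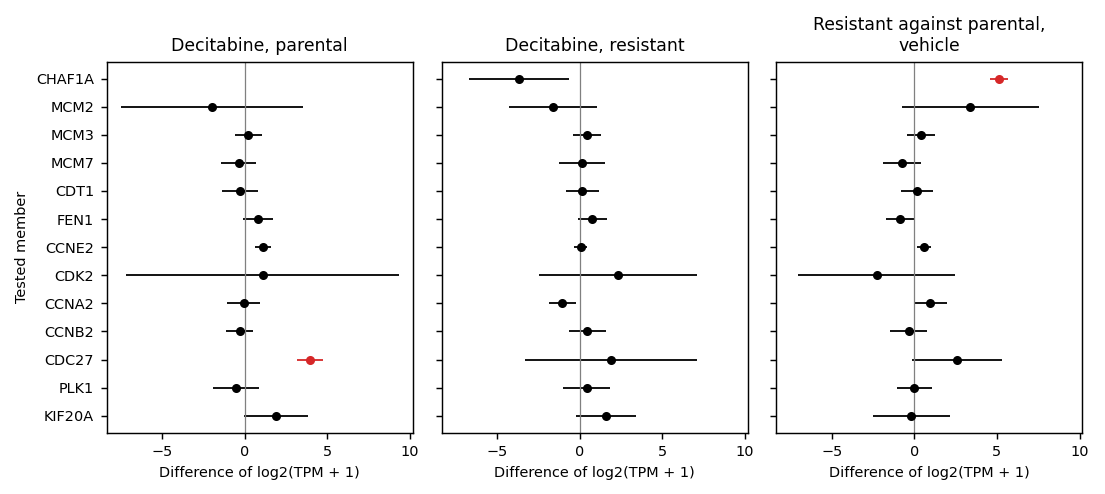
Fitted difference of log2(TPM + 1) for each tested member, with 95% intervals from the moderated test, for decitabine against vehicle in parental cells (without replicate 3) and resistant cells and for resistant against parental cells under vehicle. Red points passed the test (CDC27 in the first panel, CHAF1A in the third), and since each has a group listed at 0 their positions depend on the pseudocount of 1.

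With both lines fitted together and the line as a term, 0 of 13 tested members passed limma, where 10.4% of 8505 features were called. FEN1, KIF20A and CCNE2 had an unadjusted p under 0.05, 3 of 13, as did 26.2% of all features. FEN1 had a log2 fold change of 0.77 (SE 0.23, adjusted p = 0.0649), which was 0.29 with quantile scaling (0.539). Parental FEN1 was at 3.39, 4.42 and 2.06 TPM in vehicle libraries and 5.88 and 6.48 TPM in decitabine replicates 1 and 2. Resistant FEN1 was at 0.98, 1.47 and 1.34 TPM and then at 3.12, 4.05 and 1.73 TPM. In each line the decitabine libraries lay above all vehicle libraries, as they also did for KIF20A. The share of all features that separate so was not counted, so this only describes the values. KIF20A in resistant cells was at 0, 5.91 and 3.69 TPM with vehicle and 8.89, 8.09 and 8.96 TPM with decitabine. Its joint log2 fold change was 1.72 (SE 0.53, adjusted p = 0.0695), and it was called without resistant vehicle b (0.0481). CDC23, which shares 68 exon bases with KIF20A on the opposite strand, was at 1.61 to 5.27 TPM in the 11 libraries. CCNE2 had 0.52 (SE 0.20, adjusted p = 0.135). CDC27 had 2.81 (SE 1.26, adjusted p = 0.192) and was called once resistant decitabine c was left out. Some 95% intervals of the log2 difference span 0 widely: -0.96 to 0.96 for PLK1, -0.91 to 0.75 for MCM7, -0.66 to 0.59 for CDT1 and -0.55 to 0.80 for CCNB2. Others barely span it: -1.27 to 0.04 for CCNA2, -4.08 to 0.01 for CHAF1A and -0.0048 to 5.62 for CDC27. These libraries do not exclude changes within these intervals. The median over the tested S-phase members was 0.15 and over the tested G2/M members 0.13, against 0.21 over all features. These comparisons share their vehicle libraries with those within each line. For the difference of the 2 responses, 0 of 13 members passed, where 0.364% of 8505 features were called, and 2 had an unadjusted p under 0.05, as did 10.1% of all features.

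Among all features tested opposite a member, only 1 antisense feature at MCM2 and 1 at CCNE2 passed the joint fit for decitabine. INTS8, which has the longest overlap with CCNE2, did not pass (joint log2 fold change 0.08, SE 0.18, limma adjusted p = 0.825). Of all features, 10.4% of 8505 were called in the joint fit and 3.59% of 8579 in resistant cells. So few calls do not set the opposite features apart from all features. The antisense feature opposite MCM2 fell from 594, 644 and 657 TPM to 476.5 and 475 TPM in parental cells and from 726, 754 and 687 TPM to 472, 531 and 496 TPM in resistant cells. All 5 decitabine libraries were below all 6 vehicle libraries, and replicate 3 listed it at 0. Its log2 fold change was -0.48 with both lines together (SE 0.07, limma adjusted p = 0.00237), -0.53 in resistant cells (SE 0.10, adjusted p = 0.0494) and -0.41 in parental cells (SE 0.08, adjusted p = 0.0981). The joint call held without each of the 11 libraries in turn (adjusted p = 0.00411 to 0.00899) and was lost with replicate 3 included (0.581), while the resistant call was lost without any 1 library (0.0875 to 0.13). Annotated antisense features together also took less of the TPM with decitabine. Their share was 44.6% to 48.4% in parental vehicle libraries and 37.8% and 36.7% in replicates 1 and 2. In resistant cells it was 42.7% to 48.7% under vehicle and 34.9% to 39.7% under decitabine. The part of this shift in the fall opposite MCM2 was not tested. An antisense feature that shares 4 bases with CCNE2 rose from 3.22 to 10.7 TPM under vehicle to 12.4 to 24.1 TPM under decitabine in the 11 libraries (log2 fold change 1.48, SE 0.31, adjusted p = 0.0162). Within each line it did not pass, with a limma adjusted p of 0.097 in parental and 0.212 in resistant cells. It too was listed at 0 in replicate 3, with which its joint call was lost (0.581). The antisense features opposite CDK2 and PLK1 did not pass in the joint fit (log2 fold change -0.12, SE 0.09, and 0.08, SE 0.16), nor did PMEL (0.02, SE 0.11).

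Of the other genes of these pathways RPA1, ANLN and E2F8 were called in parental cells, where 1.86% of all features were. In parental cells the tested genes numbered 14 of 36 other replication genes, 20 of 60 other mitotic genes, 9 of 27 G1 control genes and CDK inhibitors, 9 of 17 genes of the anaphase-promoting complex and 7 of 22 other histone chaperones. RPA1, a subunit of the single-strand DNA binding protein of the fork, had 0 TPM in each vehicle library, 24.8 and 14.9 TPM in decitabine replicates 1 and 2 (limma adjusted p = 0.0191) and 70.4 TPM in replicate 3. ANLN, the anillin gene of the dividing cell's contractile ring, went likewise from 0 in each vehicle library to 6.61 and 9.58 TPM (adjusted p = 0.0331), with 27.8 TPM in replicate 3. E2F8, a repressor of the E2F family, fell: it was at 10.5, 15.9 and 10.9 TPM in vehicle libraries and listed at 0 in replicates 1 and 2 (adjusted p = 0.0208), but at 25.4 TPM in replicate 3. All 3 calls were lost without any 1 vehicle library or with replicate 3 included (0.594), and that of E2F8 also without decitabine replicate 1 or 2. Each of these 3 genes has 1 group at 0 in the fit, which adds no spread to it. Each also passed the minimum mean through its other group alone. Resistant vehicle libraries had 11.1, 0 and 0 TPM of E2F8, and resistant decitabine libraries 10.9, 10.9 and 7.59 TPM. The resistant decitabine values lay above replicates 1 and 2 of the parental line (limma adjusted p = 0.0305, lost without any 1 library). The same limits hold for that call, since those parental replicates were at 0. In resistant cells 13, 25, 9, 9 and 7 genes of these 5 lists, in the order above, were tested for the drug. Of them 0 were called, where 3.59% of 8579 features were. Between the lines under vehicle 12, 21, 9, 9 and 6 were tested and 0 were called, where 2.8% of 7761 features were. With so few tested genes, counts of 0 do not set these lists apart from all features.

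FOXM1, the transcription factor gene of the G2/M programme, was the 1 called of 24 tested mitotic genes with both lines together, where 10.4% of all features were called. It fell from 46.0, 70.2 and 44.5 TPM to 22.05 and 27.1 TPM in parental cells, with 130.5 TPM in replicate 3. In resistant cells it was at 55.4, 53.1 and 54.8 TPM under vehicle and 25.3, 24.8 and 55.5 TPM under decitabine (joint log2 fold change -0.87, SE 0.23, limma adjusted p = 0.0383). Decitabine library c was as high as vehicle there. ITFG2, which shares 781 exon bases with FOXM1 on the opposite strand, was at 57.3, 60.6 and 64.9 TPM under parental vehicle and 245 and 271 TPM under decitabine. In resistant cells ITFG2 was at 80.4, 78.2 and 80.7 TPM under vehicle and 249.6, 248 and 81.6 TPM under decitabine. The 4 libraries with low FOXM1 were thus the 4 with high ITFG2, and its part in the FOXM1 result was not tested. The FOXM1 call was lost in 10 of 11 fits that left out 1 library (adjusted p = 0.0566 to 0.0946) and held without resistant decitabine c (0.00515).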

How the data were processed

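The deposited tables, 1 per cell line, hold TPM, as deposited by the authors: each column sums to 1000000, and StringTie is named in the submitters' processing notes with HISAT2, DESeq2 and build hg38. Tool versions, annotation release and strand option: not given in the sources used here. Both tables list the same names in the same order. Gene names were used, and 1166 features with repeated names were left out. Parental columns were matched to samples by title, and resistant columns to groups, lettered a, b and c. No 2 libraries were identical.

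Each comparison used log2(TPM + 1) and limma 3.58.1 with a trend (R 4.3.3), for features averaging 1 TPM or more across the libraries of that fit, with Benjamini-Hochberg adjusted p under 0.05 over all of them. Fold changes on this scale are too small for low features. Parental decitabine replicate 3 was kept out of the 6 comparisons and included as an alternative. Other alternatives were a pseudocount of 0.1, no filter, a minimum mean of 5 TPM, quantile and median-ratio scaling, an adjusted p under 0.01, each library left out in turn, and the replicate number as a block. The fit was tested on simulated data with normal noise, with changes added only to features well above the minimum mean. The simulation did not model a group listed at 0 throughout. It therefore does not bear on the calls of CHAF1A, CDC27, RPA1, ANLN and E2F8. Opposite-strand overlap was computed from GENCODE 29 exons.

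All values are given for members with a mean of at least 20 TPM and for the called ones. The highest member of each role group in replicate 3 and opposite features averaging 5 TPM or more have values, ranges or means. At most 4 called genes per other list were named. The members and lists were chosen with earlier results of these data known. One marker list is not reported here.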

Additional observations from a re-analysis of the deposited data

Results flagged for a closer look

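Of the 48 members, 44 were higher in parental decitabine replicate 3, a library left out of the comparisons, than in every other library, vehicle libraries included. This is 91.7% of the members, against 85.1% of 6953 protein-coding genes of at least 10 TPM in that library. No member had every decitabine library above vehicle in 1 line and every one below vehicle in the other. Groups of 3 libraries are too small for a test of single outlying values.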

How the results depend on the processing

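TPM keep no depth, and 34 of the 48 members were below the minimum mean of 1 TPM in every comparison without parental decitabine replicate 3. In parental cells 1 member (CDC27) was called; 0 were called with no filter, with a mean of at least 5 TPM, at an adjusted p under 0.01, or with replicate 3 included, and 0 to 1 when 1 library was left out. Between the lines under vehicle 1 member (CHAF1A) was called, and 1 to 2 when 1 library was left out. For decitabine in resistant cells, for both lines together and for the difference of the responses, 0 members were called, and 0 to 1 when 1 library was left out (for the difference, CHAF1A, which is at 0 in parental vehicle libraries and could not fall there). Between the lines under decitabine 0 were called in each alternative run. No direction reversed for the genes named with an adjusted p above and followed across the alternatives. With the replicate number as a block, parental cells gave 0 called members (0 also with replicate 3 included, an alternative added after the data were seen). Whether the numbers pair the parental libraries could not be decided. With replicate 3 included, deviations from the group means of same-numbered libraries correlated at -0.0035, 0.016 and 0.022. Replicate 3, which differed widely from the rest, enters the decitabine mean there. Without it the deviations of decitabine replicates 1 and 2 mirror each other and cannot show a pairing. Resistant columns could not be tied to replicate numbers, so no block was fitted there or in comparisons across the lines. The call of FOXM1 was also lost with no filter (adjusted p = 0.0932), and those of RPA1, ANLN and E2F8 in parental cells with no filter (0.0537, 0.105 and 0.0537).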
